A study of Mus musculus with 2 samples.

Results

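The glycocalyx is the coat of proteoglycans, glycoproteins and hyaluronan on the luminal face of vessels. Transcripts of 49 genes that build it were examined in endothelial cells sorted from the brain vasculature of normal C57BL/6 mice. The genes were chosen by function, as core proteins that carry heparan sulfate, enzymes that make, sulfate and trim its chains, hyaluronan enzymes, sialomucins and related sulfotransferases. A gene counted when a probe set of the array carries its symbol alone, and the probe set with the highest mean signal of both arrays stood for it. By this rule 46 of the 49 had a value, among 18194 genes with a single symbol. *Xylt1*, *Ndst1* and *Hyal1* had no such probe set and were not analysed here.

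Populations that share the endothelial marker CD31 were separated by flow sorting with an antibody to Prom1 (prominin 1, CD133), giving CD31+ Prom1- and CD31+ Prom1+ cells. Each was hybridized to 1 Affymetrix mouse expression array. No age, sex, number of mice or treatment is given for them in the labels. Since a population was measured once, the spread between mice is unknown, and p-values are left out because nothing measures that spread. The signals were deposited as log2 of multiples of the median of the same array, and are given below as those multiples, first for the array labelled Prom1- and then for the array labelled Prom1+. Folds and the words higher and lower are those of the Prom1+ array, in the deposited scaling unless another is named. A signal under 1.67 times the median is below the floor set for a measurement, and genes were counted when both signals, raised to this floor, differed by at least 2-fold. This floor is 100 on the scale of the chip target of 500, set by the average of the 2% trimmed means of both arrays. These means differ, so the floor is not exactly 100 on either array. The floors of 50 and 200 named below are on that averaged scale. The shift between the arrays was general, with a median log2 ratio of Prom1+ over Prom1- of 0.69 over the 9360 genes measured on both. Ratios of probe sets of the same gene differed with an SD of 0.54 on the log2 scale over 3930 genes, a technical measure that says nothing of the spread between mice.

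The arrays are named by their labels. *Prom1* itself had a signal of 196 with the Prom1- label and 159 with the Prom1+ label, so its transcript did not separate the arrays in the direction of the sort. Its probe set lies in the range of at least 100 times the median on both arrays, where 0 of 591 probe sets were 2-fold higher and 5 were 2-fold lower. Asking for both arrays leaves out genes bright on 1 only, such as *Acta2* at 295 and 81.6, and so lowers these counts. Binned by mean log2 signal instead, 0% of 381 probe sets at 7 to 8 were higher and 2.36% lower. At 8 to 9, 0% of 29 were higher and 10.3% lower. Endothelial markers were present on both. All 25 pan-endothelial genes found reached the floor on both arrays, and the tight junction gene *Cldn5* had signals of 326 and 219. Of the 25, 24 differed by less than 2-fold, as did 7233 of 10793 genes in all. Many of the 25, *Cldn5* among them, lie in the same bright range as *Prom1*, where few probe sets differed. Their small differences therefore do not show equal endothelial content. Transcripts of other cells were also measured, and are given below.

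Heparan sulfate is assembled in the Golgi on a core protein. Enzymes first place a short sugar linker on serines of the core, exostosins then polymerize the chain, and sulfotransferases and an epimerase modify it into patterns that bind growth factors, chemokines, antithrombin and lipoprotein lipase. Outside the cell, sulfatases and heparanase edit the chain. In brain capillaries the coat faces the blood as part of the barrier, and endocan, endomucin and syndecans are among its known endothelial components.

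Signals at or above the floor were found for 34 of the 46 genes, 29 of them on both arrays and 5 on 1 array only. The probe sets that stood for the remaining 12 were under the floor on both arrays. In the array labelled Prom1+ 4 of 9 membrane-bound core proteins were at least 2-fold lower, and none rose by as much. With the arrays scaled on the hybridization controls 2 were lower, 22.2%, and 3 higher, 33.3%. Of all genes 2.28% were lower and 78.8% higher under that scaling. As deposited, 4 of 14 genes that build the heparan chain were at least 2-fold higher and 2 lower. Over the whole set 6 genes were at least 2-fold higher, 17.6% of the 34, where 28.2% of the 10793 genes that reached the floor were. The 4 of 14 chain-building genes, 28.6%, are close to that background. The other 6 that differed were lower, also 17.6%, where 4.77% of all genes were. The median log2 ratio of the 29 genes measured on both arrays was 0.58, against 0.69 for all genes, and with the bounds of the other 5 included it was 0.24, against 0.66.

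**Figure D1:**
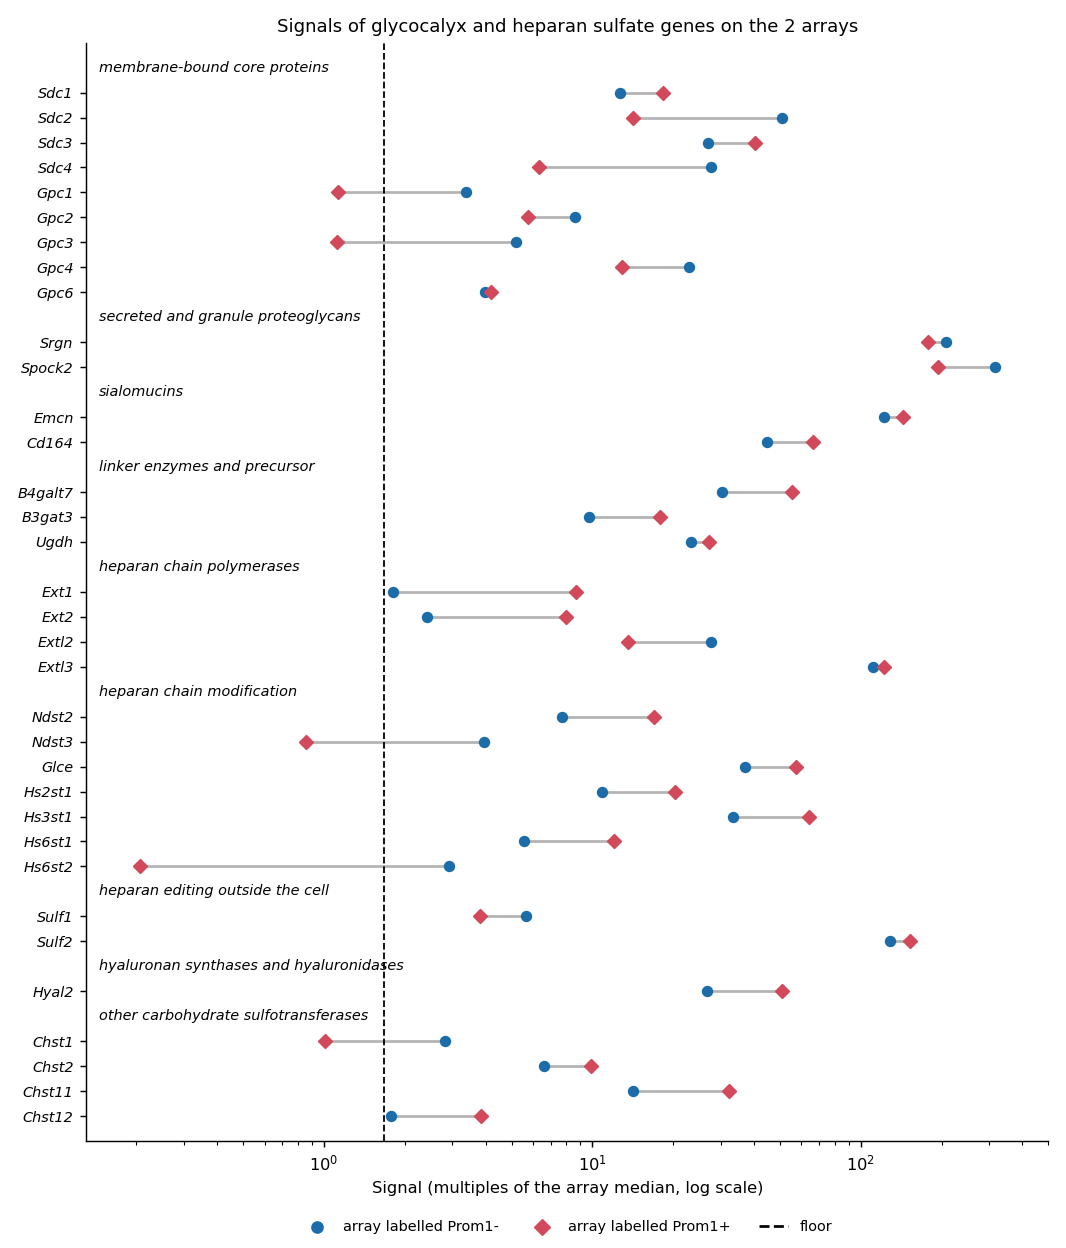
Signal of each of the 34 glycocalyx genes that reached the floor, in multiples of the array median on a log scale, with a circle for the array labelled Prom1- and a diamond for the array labelled Prom1+. The dashed line is the floor at 1.67 times the median, and there is 1 array per population, so no error bars are drawn. Diamonds lie far to the left of circles for *Sdc2*, *Sdc4* and *Gpc3* and to the right for *Ext1* and *Ext2*.

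Syndecans are transmembrane core proteins, and 2 of the 4 were at least 2-fold lower in the array labelled Prom1+. *Sdc2*, a syndecan of mesenchymal cells and of vessel sprouting, had signals of 50.7 and 14.2, 3.58-fold lower. Its other 2 probe sets measured on both arrays were 4.91-fold and 4.37-fold lower, at 27.6 and 5.61 and at 13.2 and 3.02. All 3 lay on the same side of 0 by more than the technical SD. *Sdc4*, the syndecan of focal adhesions, had signals of 27.7 and 6.33, 4.37-fold lower. A second *Sdc4* probe set lay just under the floor on the Prom1- array, with signals of 1.67 and 2.32, and was higher in the Prom1+ array by 0.47 on the log2 scale. With the mean over both probe sets the log2 ratio of *Sdc4* was -0.83, less than 2-fold. The other syndecans differed by less. *Sdc1*, known from epithelium and plasma cells, had signals of 12.7 and 18.4, and *Sdc3*, a syndecan of neural and vascular tissue, had signals of 26.9 and 40.2. Their folds of 1.45 and 1.49 were below the general shift of the arrays.

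Glypicans are core proteins held to the membrane by a lipid anchor. *Gpc3*, a regulator of growth factor and Hedgehog signals, had signals of 5.20 and, under the floor, 1.12, a fold of at least 3.10 on the low side. *Gpc1*, which binds FGF2, had signals of 3.39 and, under the floor, 1.13, a fold of at least 2.03 and so just past the threshold. Each of these was measured by 1 probe set, and neither was 2-fold lower with a floor of 200, which left log2 bounds of -0.63 for *Gpc3* and -0.02 for *Gpc1*. With the hybridization controls set equal that of *Gpc1* was -0.53. *Gpc4* was 1.78-fold lower, at 22.8 and 12.8, and its second probe set was 2.19-fold lower, at 21.5 and 9.81. *Gpc2* had signals of 8.58 and 5.75, 1.49-fold lower. *Gpc6* hardly differed, at 3.96 and 4.17, and *Gpc5* did not reach the floor on either array.

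Among the 4 secreted and granule proteoglycans, the 2 that reached the floor differed by less than 2-fold. Serglycin (*Srgn*), the proteoglycan of secretory granules in leukocytes and endothelium, had signals of 208 and 178. Testican 2 (*Spock2*), a secreted proteoglycan of brain, had signals of 315 and 194. Endocan (*Esm1*), a dermatan sulfate proteoglycan of endothelial tip cells, did not reach the floor, at 0.351 and 0.199, and neither did the probe set used for versican (*Vcan*), at 1.43 and 0.650. Another *Vcan* probe set was just above the floor on the Prom1- array, at 1.70, and far under it on the other. The sialomucins, whose dense sialic acid gives the coat its charge, were measured on both arrays. Endomucin (*Emcn*), an endothelial sialomucin of capillaries and veins, had signals of 122 and 144, and endolyn (*Cd164*) had signals of 44.6 and 66.5, 1.18-fold and 1.49-fold higher. *Srgn*, *Spock2*, *Emcn*, *Extl3* and *Sulf2* lie in the same range as *Prom1*, where few probe sets differed between the arrays, and equal levels of their transcripts are not shown.

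Both exostosins that polymerize heparan sulfate had the highest ratios of the 34 genes. *Ext1*, which encodes one subunit of the polymerase, had signals of 1.81, close to the floor, and 8.70, 4.80-fold higher. *Ext2*, the partner subunit, had signals of 2.42 and 7.99, 3.31-fold higher. Each rests on 1 probe set above the floor. *Extl3*, which starts the chain, had signals of 111 and 121. *Extl2*, a transferase that can stop the growing chain, gave opposite answers. Its probe set with the higher mean was 2.03-fold lower, at 27.6 and 13.6, and the other was 2.95-fold higher, at 4.03 and 11.9. *Extl1* did not reach the floor.

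The 3 measured enzymes of the linker and of its precursor were higher by less than 2-fold, though *Ugdh* turned lower with trimmed mean, quantile and loess scaling. *B4galt7*, the first galactosyltransferase of the linker, had signals of 30.3 and 55.6, 1.84-fold higher, and its second probe set was 2.63-fold higher, at 19.1 and 50.2. *B3gat3*, which adds the glucuronic acid, had signals of 9.73 and 17.8, 1.83-fold higher. *Ugdh*, which makes the UDP-glucuronic acid used for all these chains, had signals of 23.3 and 27.2. *Xylt2*, the xylosyltransferase that starts the linker, and *B3galt6* were under the floor on both arrays.

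Among chain-modifying enzymes, the pair past the threshold on the high side acts on N- and 6-O-sulfation, and neither gene stayed 2-fold higher with trimmed mean, quantile or loess scaling. *Ndst2*, an N-deacetylase and N-sulfotransferase, had signals of 7.72 and 17.0, 2.20-fold higher. *Hs6st1*, a 6-O-sulfotransferase, had signals of 5.54 and 11.98, 2.16-fold higher. A relative of each had a signal under the floor in the Prom1+ array. *Ndst3* had signals of 3.96 and, under the floor, 0.859, at least 2.36-fold lower, with a log2 bound of -0.24 at a floor of 200, and *Hs6st2* had signals of 2.93 and 0.206, at least 1.75-fold lower. *Hs3st1*, the 3-O-sulfotransferase that makes the antithrombin-binding site, had signals of 33.4 and 63.9, 1.91-fold higher. The C5-epimerase *Glce* had signals of 37.1 and 57.2, 1.54-fold higher. For the 2-O-sulfotransferase *Hs2st1* the probe set used was 1.87-fold higher, at 10.8 and 20.2, while another was 2.05-fold lower, at 10.1 and 4.92. *Hs3st3b1* stayed under the floor in both populations.

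Of the genes that edit the chain outside the cell, the endosulfatase *Sulf2*, which removes 6-O-sulfates, had signals of 129 and 152. Its relative *Sulf1* had signals of 5.67 and 3.81, 1.49-fold lower. Heparanase (*Hpse*) did not reach the floor, at 0.315 and 0.0480. All 3 hyaluronan synthases were under the floor on both arrays, with *Has1* at 0.312 and 0.251, *Has2* at 0.0381 and 0.147 and *Has3* at 1.16 and 0.561. The hyaluronidase *Hyal2* was measured, at 26.7 and 50.9, 1.91-fold higher.

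Sulfotransferases of other chains included the last pair past the threshold. *Chst11*, which sulfates chondroitin at the 4-O position, had signals of 14.2 and 32.2, 2.28-fold higher. *Chst12*, of the same activity, had signals of 1.78, close to the floor, and 3.85, 2.16-fold higher, and with a floor of 200 its log2 ratio was 0.20. Neither gene stayed 2-fold higher with trimmed mean, quantile or loess scaling. *Chst2*, which sulfates N-acetylglucosamine on selectin ligands, had signals of 6.60 and 9.90, and the keratan sulfotransferase *Chst1* had signals of 2.83 and 1.01, the latter under the floor. *Chst4* was at the lowest value of the files on both arrays.

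**Figure D2:**
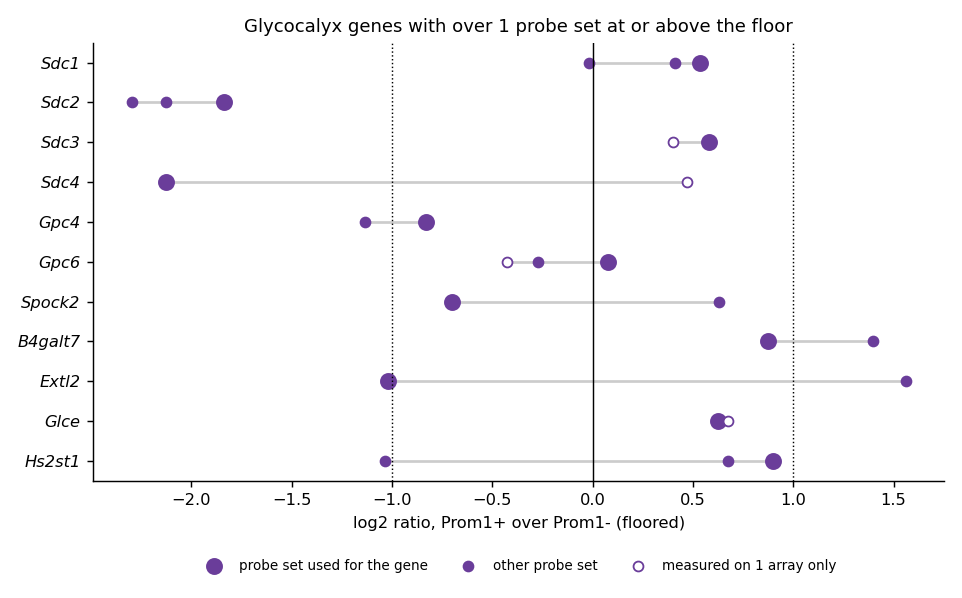
Log2 ratio of Prom1+ over Prom1-, with signals raised to the floor, for every probe set at or above the floor of the 11 glycocalyx genes that have more than 1. Large points are the probe sets used, small points the others, open points those measured on 1 array only, and dotted lines mark 2-fold. The 3 points of *Sdc2* lie together between -2.30 and -1.84, while those of *Sdc4*, *Extl2* and *Hs2st1* lie on both sides of 0.

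Agreement between probe sets of a gene was thus uneven. Of 8 genes with more than 1 probe set measured on both arrays, 5 had ratios of opposite sign. These were *Sdc1*, from -0.02 to 0.54 on the log2 scale, *Gpc6*, from -0.27 to 0.07, *Spock2*, from -0.70 to 0.63, *Extl2*, from -1.02 to 1.56, and *Hs2st1*, from -1.03 to 0.90. For the first 3 of these all ratios stayed within 2-fold. Where the probe sets bind in the transcripts is not given in the sources used here.

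The regulatory sequence before the genes that differ most is shown so that it can be read beside these ratios. For 39 of the 49 genes RefSeq promoters of the GRCm38.p6 build were at hand, *Sdc2* and *Ext1* not among them. The 250 bases before the start of transcription are printed for the genes with the largest folds in each direction among those listed, *Sdc4* and *Gpc3* on the low side and *Ext2* and *Chst11* on the high side. Capitals mark matches to the GC box GGGCGG, the CCAAT box and the ETS core AGGAAG on either strand, and no matches of different motifs overlap.
Sdc4, chr2:164443189-164443438, minus strand: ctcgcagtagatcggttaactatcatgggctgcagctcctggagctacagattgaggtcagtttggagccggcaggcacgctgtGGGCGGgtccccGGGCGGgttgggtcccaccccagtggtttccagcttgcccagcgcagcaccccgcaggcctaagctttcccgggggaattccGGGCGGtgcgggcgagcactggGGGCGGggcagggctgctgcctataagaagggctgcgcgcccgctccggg
Gpc3, chrX:52613975-52614224, minus strand: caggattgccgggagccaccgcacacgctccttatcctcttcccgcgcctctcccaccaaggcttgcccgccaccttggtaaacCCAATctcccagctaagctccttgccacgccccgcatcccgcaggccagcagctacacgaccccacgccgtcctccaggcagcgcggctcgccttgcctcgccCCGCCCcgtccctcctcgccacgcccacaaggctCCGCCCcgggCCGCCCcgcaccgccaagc
Ext2, chr2:93822569-93822818, minus strand: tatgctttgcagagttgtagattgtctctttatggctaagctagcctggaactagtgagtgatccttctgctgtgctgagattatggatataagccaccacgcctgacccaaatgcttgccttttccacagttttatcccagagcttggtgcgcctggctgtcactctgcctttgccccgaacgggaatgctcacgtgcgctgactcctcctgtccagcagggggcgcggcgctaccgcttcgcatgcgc
Chst11, chr10:82985247-82985496, plus strand: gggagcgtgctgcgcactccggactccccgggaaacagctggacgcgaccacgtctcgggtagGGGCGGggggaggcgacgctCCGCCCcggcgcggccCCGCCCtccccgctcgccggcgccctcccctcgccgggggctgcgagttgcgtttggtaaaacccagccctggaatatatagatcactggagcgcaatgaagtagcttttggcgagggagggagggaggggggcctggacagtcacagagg

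The window of *Sdc4* held 4 GC boxes, that of *Gpc3* 3 GC boxes and 1 CCAAT box, and that of *Chst11* 3 GC boxes. None of the motifs was found in the window of *Ext2*. Of 32851 promoter windows of this length, 32.7% held a GC box, 33.8% a CCAAT box and 29.5% an ETS core on either strand. The content of G and C was 68% for *Sdc4*, 71.6% for *Gpc3*, 54.8% for *Ext2* and 70% for *Chst11*, where the median window had 52.4%. These are descriptions of the sequence, and no binding was measured.

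How far the arrays were apart depended on the signal. Probe sets at a mean log2 signal of 3 to 4 had a median log2 ratio of 0.87, and those at 7 to 8 had -0.22. A loess curve of the ratio on the signal was therefore subtracted, to read each gene against others of like signal. *Ext1* then was higher by 1.49 on the log2 scale and *Ext2* by 0.91. Of the other enzymes at least 2-fold higher as deposited, *Ndst2* had 0.24, *Hs6st1* 0.23, *Chst11* 0.36 and *Chst12* 0.74. All 7 core proteins measured on both arrays lay below the curve, *Sdc2* at -2.61, *Sdc4* at -3.00, *Gpc4* at -1.69 and *Gpc2* at -1.44, and closer to it *Gpc6* at -0.71, *Sdc1* at -0.33 and *Sdc3* at -0.14. *Sulf1* had -1.41 and *Extl2*, by the probe set used, -1.87. *Hs3st1*, *B4galt7* and *Hyal2*, higher before this step, had 0.33, 0.23 and 0.25. *B3gat3*, *Glce* and, by the probe set used, *Hs2st1* were also higher before it, and had 0.0009, 0.02 and 0.04.

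**Figure D3:**
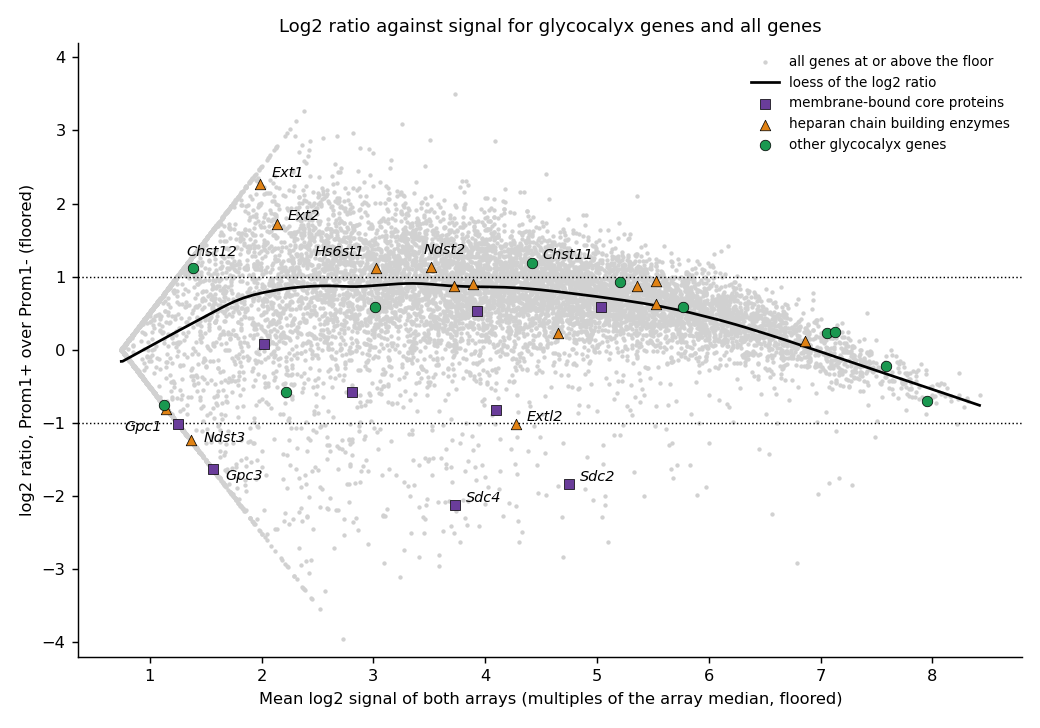
Log2 ratio of Prom1+ over Prom1- against the mean log2 signal of both arrays, with signals raised to the floor, for all 10793 genes that reached it (grey) and the 34 glycocalyx genes (colored by role). The black line is the loess curve, dotted lines mark 2-fold, the straight edges at the left are genes at the floor on 1 array, and the 12 glycocalyx genes past 2-fold are named. *Sdc2* and *Sdc4* lie well below the curve, while *Ndst2* and *Hs6st1* lie close to it.

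The counts depended on how the arrays were scaled to each other, and the background moved with them. With loess 1 gene was at least 2-fold higher and 9 lower, where 4.17% and 7.82% of all genes were. With the 2% trimmed means set equal the counts were 2 and 12 of 35, against 8.1% and 7.99%. With quantile normalization they were 2 and 11, against 6.55% and 7.86%. With the pan-endothelial genes set to a median ratio of 0 they stayed at 6 and 6, against 28.1% and 4.77%. The median log2 ratio of the pan-endothelial genes was already 0.002 as deposited, so this scaling hardly moved the arrays and is no separate check. With the hybridization controls set equal the counts were 21 and 3, against 78.8% and 2.28%. The lower share exceeded that of all genes under each of these scalings. *Sdc4*, *Gpc3* and *Ndst3* were at least 2-fold lower and *Ext1* at least 2-fold higher under all 5 scalings, though *Sdc4* lost this with the mean over probe sets and *Gpc3* and *Ndst3* with a floor of 200. *Sdc2* was so under 4 and lower by 0.78 on the log2 scale with the hybridization controls set equal. Under that scaling 3 of the 9 core proteins were higher and 2 lower, while loess, quantile and trimmed mean scaling each gave 6 lower and none higher. The direction of 14 of the 34 genes differed between scalings, the deposited one included. These were *Sdc1*, *Sdc3*, *Gpc2*, *Gpc4*, *Gpc6*, *Srgn*, *Spock2*, *Emcn*, *Extl2*, *Extl3*, *Ugdh*, *Sulf1*, *Sulf2* and *Chst2*, each less than 2-fold apart as deposited except *Extl2*.

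**Figure D4:**
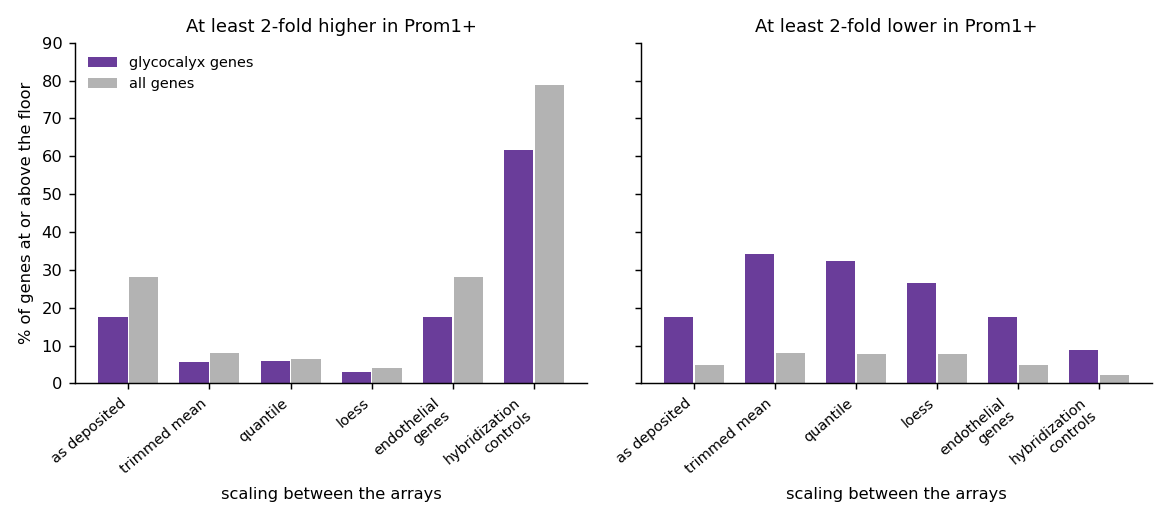
Share of genes at or above the floor that were at least 2-fold higher (left) or lower (right) in the array labelled Prom1+, for the glycocalyx genes (purple) and all genes (grey), under the deposited scaling and 5 others. The bars come from 1 array per population and have no error. Purple bars lie below grey ones on the left and above them on the right.

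Genes of the same chemistry outside the set were taken from lists fixed by function. Of 67 found, 38 reached the floor, 6 of these were at least 2-fold higher, 15.8% against the 28.2% of all genes, and 5 lower, 13.2% against 4.77%. Among the remaining genes of heparan sulfate synthesis 7 reached the floor, 3 were higher and 1 lower. The higher ones were the xylose kinase *Fam20b*, 2.51-fold at 7.67 and 19.3, and the nucleotide sugar and sulfate carriers *Slc35d1*, 2.50-fold at 3.54 and 8.84, and *Slc35b3*, 2.30-fold at 9.19 and 21.1. *Papss2*, which makes the sulfate donor, was 2.16-fold lower at 4.05 and 1.88, while *Papss1*, of the same activity, had signals of 21.5 and 34.1. Chondroitin and dermatan sulfate enzymes had 1 of 8 higher, the epimerase *Dsel*, 2.53-fold at 7.57 and 19.1, and none lower. *Csgalnact1*, which starts chondroitin chains, had signals of 42.2 and 80.0.

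Of the core proteins of those chains, all 3 that reached the floor were at least 2-fold lower. With the hybridization controls set equal 1 of them still was, where 2.28% of all genes were. *Cspg4* (NG2), a proteoglycan of pericytes and glial precursors, had signals of 10.9 and 2.34, 4.65-fold lower. Decorin (*Dcn*), a matrix proteoglycan of fibroblasts, had signals of 6.65 and 1.69, 3.94-fold lower, and biglycan (*Bgn*) had signals of 53.0 and 23.7, 2.23-fold lower. Heparan sulfate proteoglycans of the basement membrane and carriers that bear such chains at times formed another list. None of its 5 measured genes differed by 2-fold, among them perlecan (*Hspg2*) at 33.5 and 41.2, agrin (*Agrn*) at 141 and 137 and the coreceptor *Nrp1* at 151 and 133. The endothelial sialomucins *Podxl*, at 185 and 159, and *Cd34*, at 145 and 128, also differed by less than 2-fold. *Agrn*, *Nrp1*, *Podxl* and *Cd34* lie in the same bright range as *Prom1*, where few probe sets differed, and equal levels of their transcripts are not shown.

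Many transcripts of other cells found in and around vessels were lower in the array labelled Prom1+, as were 4 of the 9 core proteins. With 1 array per population, a shared direction shows no association between genes. Of 13 pericyte and smooth muscle genes 11 were at least 2-fold lower, their summed signals were 1194 and 396, and none was under the floor on both. *Acta2* alone had signals of 295 and 81.6. Of 13 microglia and macrophage genes that reached the floor 11 were lower, with sums of 348 and 145 over 14 found, *Ctss* at 79.1 and 32.6, and *Itgam* under the floor on both. Of 8 fibroblast and meningeal genes that reached it 4 were lower, with sums of 622 and 228 over 11 found, *Mgp* at 261 and 165, *Ptgds* at 305 and 40.3, and *Lum*, *Aldh1a2* and *Igfbp6* under the floor on both. With the hybridization controls set equal, these 3 lists had 2, 1 and 3 genes lower, where 2.28% of all genes were, against 4.77% as deposited. The part of these cells in the lower core protein signals was not tested. In bulk samples fewer cells of a type and less RNA per cell cannot be told apart.

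Neural markers differed less evenly. Oligodendrocyte genes had 1 of 7 higher and 2 lower, with *Mbp* at 271 and 119, and *Mag* and *Ugt8a* under the floor on both arrays. Astrocyte genes also had 1 of 7 higher, *Fgfr3*, and 2 lower, *S100b* and *Atp1b2*, with *Gja1* at 67.0 and 84.5. The astrocyte markers *Gfap*, *Aqp4* and *Aldh1l1* were under the floor on both arrays. Of 3 neuronal genes that reached the floor 2 were lower, and *Stmn2* had signals of 45.1 and 79.5. The neuronal markers *Tubb3*, *Rbfox3* and *Gad1* were under the floor on both arrays. All 5 markers of oligodendrocyte precursors, a known source of *Vcan*, were under the floor on both arrays, *Ptprz1* the nearest to it at 1.45 and 0.351. Of 3 ependymal and choroid plexus genes that reached the floor all were lower, with *Ttr* at 426 and 210, and *Foxj1* and *Kl* were under it on both arrays. Of 7 leukocyte genes 6 were under the floor on both, and *Cd52* had signals of 2.97 and 2.31. As deposited, 28.2% of all genes were higher and 4.77% lower. With the hybridization controls set equal 78.8% were higher and 2.28% lower. Oligodendrocyte genes then had 3 of 8 higher and 0 lower, and astrocyte genes 2 of 7 higher and 1 lower. Neuronal genes had 1 of 3 higher and 2 lower, and ependymal and choroid plexus genes 0 of 4 higher and 1 lower.

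**Figure D5:**
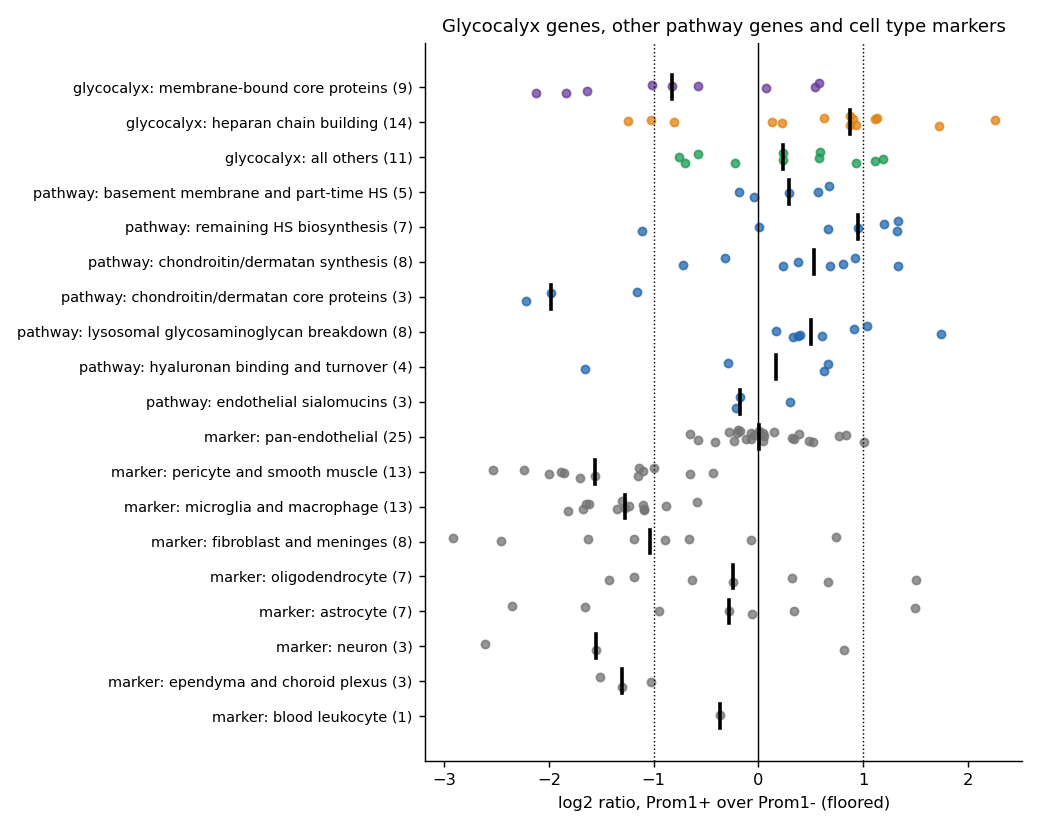
Log2 ratio of Prom1+ over Prom1-, with signals raised to the floor, for glycocalyx genes, other genes of the pathway and cell type markers, with the number at or above the floor in brackets and the median as a black bar. Points are genes, dotted lines mark 2-fold, and vertical offsets only separate points. In the deposited scaling, which is drawn, the medians are -0.83 for the 9 membrane-bound core proteins, 0.87 for the 14 chain-building genes, -1.56 for pericyte and smooth muscle genes and 0.00 for pan-endothelial genes. With the hybridization controls set equal they are 0.23, 1.93, -0.51 and 1.06, and with loess -1.44, 0.06, -2.05 and 0.09.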

How the data were processed

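RNA of CD31+ Prom1- and CD31+ Prom1+ cells was extracted right after sorting, amplified, labeled with biotin and hybridized to 1 array each. Per the study's methods, signals of each chip were scaled to a target of 500 and then normalized with GeneSpring. MAS5 is named in the notes on processing that the submitters gave. The values deposited by the authors are log2 signals over the median of the same array, with a median of 0 and a lowest value of -6.64 in both columns. Detection calls were not used here. The 15 Bacillus control probe sets counted here reached at most 0.229 and 0.234 times the median. The number of arrays limits the precision.

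The log was undone to give multiples of the median. The floor of 100 on the target scale is 1.67 times the median, by way of the 2% trimmed means, averaged over the arrays. Where 1 signal lay under the floor the fold is a bound, and where both did no fold is given. Of 45101 probe sets, 34958 carry a single symbol in the platform annotation, 932 several and 9211 are not listed there. All 98 probe sets of these genes have identifiers found, with the same symbol, in the RefSeq gene table of GRCm38.p6, used for names only, and 4 that list one of the genes with another gene were left out. Loess had a span of 0.2. Genes and lists were chosen with earlier results of these data known. Every gene of the set was named, with both signals where it reached the floor. Of the pathway lists those past 2-fold and the gene with the highest mean signal of each were named, and of the marker lists the latter, and other genes named from both kinds of list were picked with their values known. The loess step with the 2-fold rule was tested on simulated arrays, with less noise than between probe sets here and with changed genes above the floor. Changed genes near the floor and the choice of probe set were not simulated. Alternatives were floors of 50 and 200 and none, folds of 1.5 and 3, 5 scalings, and 3 choices of probe set. The loess curve was fitted with statsmodels 0.14.6, other steps ran in Python 3.11.15 with pandas 2.3.3, scipy 1.17.1 and numpy 2.4.6, and plots were drawn with matplotlib 3.10.9.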

Additional observations from a re-analysis of the deposited data

How the results depend on the processing

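Of the counts of 6 glycocalyx genes higher and 6 lower, those with a floor of 50, the pan-endothelial scaling and every choice of probe set were within 1.5 times. The pan-endothelial scaling is almost the deposited one and is no separate check. With no floor 13 were lower, the median log2 ratio was 0.0372, and 12 pathway genes were higher and 12 lower. With a floor of 200, 3 glycocalyx and 2 pathway genes were lower. At 1.5-fold 13 glycocalyx genes were higher and 10 lower, and 16 pathway genes were higher. At 3-fold these counts were 2, 3 and 1, and 3 pathway genes were lower. For these other floors and folds the share of all genes is not given here, so the counts have no background to be read against. With trimmed means set equal 2 glycocalyx genes were higher and 12 lower, with a median of 0.0339, and 1 pathway gene was higher. With quantile normalization 2 were higher and 11 lower, and 1 pathway gene was higher. With loess 1 was higher, the median was 0.0381, and 0 pathway genes were higher. With the hybridization controls set equal 21 were higher and 3 lower, the median was 1.29, and 27 pathway genes were higher and 2 lower. Of all genes, 8.1% were higher with trimmed means, 6.55% with quantile normalization, 4.17% with loess and 78.8% with the hybridization controls. Lower were 7.99%, 7.86%, 7.82% and 2.28%, in that order. With the mean over probe sets 3 pathway genes were lower. The median log2 ratio of the 9360 genes measured on both arrays was 0.69 as deposited, 0.15, 0.10, 0.03, 0.69 and 1.75 with trimmed mean, quantile, loess, pan-endothelial and hybridization control scaling. Of the genes past 2-fold, *Extl2* changed sign, to 0.0347 with the hybridization controls set equal and to 0.27 with the mean over probe sets. The cause of these changes was not tested. No paired analysis was possible because each population has 1 array.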

Other observations

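Genes that break down glycosaminoglycans in the lysosome were measured on both arrays in 8 of 9 cases. Of the 8, 2 had a higher signal in the Prom1+ array by 2-fold or more, 25%, where 28.2% of all genes did, and none a lower one. *Hgsnat*, which acetylates heparan sulfate for its breakdown, had signals of 4.21 and 14.1, 3.35-fold higher, and *Naglu*, which acts in the next step, had signals of 3.84 and 7.90, 2.06-fold higher. *Hexa*, a subunit of hexosaminidase, had signals of 37.9 and 57.7. After loess no pathway gene outside the set was at least 2-fold higher.

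Of 4 genes of hyaluronan binding and turnover that reached the floor, the link protein *Hapln1*, which ties hyaluronan to proteoglycans, had signals of 5.29 and, under the floor, 0.389, a fold of at least 3.16 on the low side. The scavenger receptor *Stab1* had signals of 36.4 and 57.5. *Lyve1*, the hyaluronan receptor of lymphatic vessels, was under the floor on both arrays.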
